A study of Mus musculus with 24 samples.

Results

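The genes described here are 8 genes of the immunoproteasome and of peptide loading onto class I molecules: Psmb8, Psmb9, Psmb10, Tap1, Tap2, Tapbp, B2m and Nlrc5. They were chosen by name, as the probe sets whose only annotated gene is 1 of these symbols. These genes, and the lists of other genes used below, were chosen with earlier results of these data known. Shares of all genes printed beside their counts are therefore descriptions and not tests. Of the 8 genes, 7 were measured, each by 1 probe set, among 30838 genes on the array. Nlrc5, the transactivator of class I genes, lay only on a probe set that is also annotated to the microRNA gene Mir7072, so it has no value of its own and enters no count below.

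RNA was measured on 24 Affymetrix mouse transcriptome arrays, 1 per sample, from mouse colon cells sorted by flow cytometry for gp38 and against Epcam, CD45 and CD31, a surface phenotype used for fibroblasts. There were 9 IhhKO_ApcKO arrays (title genotype IhhKO-ApcKO), 8 ApcKO arrays (IhhWT-ApcKO) and 7 WT arrays (IhhWT-ApcWT). Titles of all 3 genotypes, WT included, carry Villincre-ERT2 and ZsGreen, an inducible Cre driven by the Villin promoter, whose activity is in intestinal epithelium and not in fibroblasts, and a fluorescent reporter. The gene deletions therefore belong to the neighbouring epithelium: Apc restrains Wnt signalling there, and Ihh encodes the Hedgehog ligand Indian hedgehog. The labels give neither the age of the mice nor the time after induction, and they do not say that every array is a separate mouse, so p-values measure the spread between these samples.

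Cells cut intracellular proteins into peptides with the proteasome, and interferon-gamma makes them replace its constitutive catalytic subunits with Psmb8, Psmb9 and Psmb10, which gives the immunoproteasome. The Tap1 and Tap2 transporter carries the peptides into the endoplasmic reticulum, where tapasin, encoded by Tapbp, helps load them onto class I heavy chains paired with beta-2 microglobulin, encoded by B2m. Fibroblasts, like nearly all nucleated cells, present peptides in this way and raise the pathway in response to interferon.

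Psmb9, Tap1, Psmb8 and Tap2 are neighbours on mouse chromosome 17 in RefSeq, and Psmb9 and Tap1 are transcribed in opposite directions from a shared stretch of 225 bases. Promoter sequences were given for 6 of the 8 genes, not for Tap2 and Nlrc5. The stretches printed are 3: that of Psmb8, the gene with the largest differences between genotypes below; the whole stretch between the Psmb9 and Tap1 starts; and that of B2m. All are RefSeq sequences of the build GRCm38.p6 on the plus strand, with capitals marking motif matches.
Psmb8, chr17:34197945-34198194: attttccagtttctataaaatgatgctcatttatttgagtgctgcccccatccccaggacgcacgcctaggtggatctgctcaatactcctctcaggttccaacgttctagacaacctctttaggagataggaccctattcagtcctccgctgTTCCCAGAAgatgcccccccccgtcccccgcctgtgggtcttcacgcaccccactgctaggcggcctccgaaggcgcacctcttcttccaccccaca
Psmb9 and Tap1, chr17:34187331-34187555: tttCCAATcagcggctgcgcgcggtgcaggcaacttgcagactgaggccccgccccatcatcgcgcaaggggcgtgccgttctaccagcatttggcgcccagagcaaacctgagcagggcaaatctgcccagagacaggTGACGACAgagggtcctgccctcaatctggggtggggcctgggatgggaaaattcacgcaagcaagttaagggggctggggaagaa
B2m, chr2:122147437-122147686: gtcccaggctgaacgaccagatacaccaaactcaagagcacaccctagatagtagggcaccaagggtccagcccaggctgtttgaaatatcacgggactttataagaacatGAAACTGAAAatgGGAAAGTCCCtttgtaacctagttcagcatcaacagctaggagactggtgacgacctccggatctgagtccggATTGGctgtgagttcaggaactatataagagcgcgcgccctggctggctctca

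In the Psmb8 stretch the capitals mark TTCNNNGAA, the gamma-activated sequence. The capitals between Psmb9 and Tap1 mark CCAAT, the box bound by NF-Y, and TGACGNCA, a form of the cyclic AMP response element. In the B2m stretch they mark the core of the interferon-stimulated response element (GAAA, any 2 bases, GAAA), then a form of the NF-kappa-B site (GGG, any 2 bases, TTTCC) and CCAAT, both of these on the minus strand; the 3 matches do not overlap. The 5 motifs were searched on both strands in windows of 250 bases before and 50 after each gene's start. Among 32851 such windows, the interferon-stimulated element was in 3.44%, TTCNNNGAA in 8.3%, CCAAT in 37.4%, TGACGNCA in 3.21% and the NF-kappa-B form in 1.63%. Of the 6 windows of the genes described here, CCAAT was in 4 (B2m, Psmb9, Tap1 and Tapbp), TGACGNCA in 2 (Psmb9 and Tap1), and each of the other motifs in 1. The windows of Psmb9 and Tap1 both hold the printed stretch between their starts, so its CCAAT and TGACGNCA matches are counted for both genes. These matches describe letters only.

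Values below are the deposited RMA log2 levels, in which 1 log2 unit is a 2-fold change. Array medians lay between 4.96 and 5.14, and the values of negative control probe sets had their median at 4.65 and their 95th percentile at 8.21. All 7 genes lay above that control median on every array. The means of Psmb10, Tapbp and B2m, 3 of the 7, were above the 95th percentile too, and Psmb9 was the dimmest, with a lowest value of 6.18. Podoplanin (Pdpn), which is gp38, lay between 10.7 and 11.1 on the 24 arrays, Ptprc, which encodes CD45, between 2.82 and 3.21, and Epcam, an epithelial gene, between 4.73 and 8.11. Array B9, labelled IhhKO_ApcKO, had the Hedgehog target Gli1 at 7.99, against a median of 6.79 for the 9 IhhKO_ApcKO arrays, 8.24 for ApcKO and 8.08 for WT. The main differences, means and correlations that involve IhhKO_ApcKO are therefore also given without B9. Sample codes begin with A on all 7 WT arrays and on ApcKO array A9, with B on the other 7 ApcKO arrays and on B9, and with C on the other 8 IhhKO_ApcKO arrays. What the letter stands for is not given in the labels.

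Immunoproteasome subunits were lowest on average in ApcKO. The IhhKO_ApcKO and WT means lay close together for Psmb8 and Psmb9, while for Psmb10 the WT mean lay nearer to that of ApcKO. Psmb8, the catalytic subunit that replaces Psmb5, was at 6.80, 7.16 and 7.33 on the lowest, median and highest IhhKO_ApcKO array, at 6.55, 6.85 and 6.97 in ApcKO, and at 6.78, 7.08 and 7.34 in WT. Of the 9 IhhKO_ApcKO arrays 7, and of the 7 WT arrays 6, lay above every ApcKO array, the exceptions being B9 and C3 in IhhKO_ApcKO and A6 in WT, so the groups overlapped. Group means were 7.10 ± 0.18 in IhhKO_ApcKO (SD, n = 9), 6.81 ± 0.14 in ApcKO (SD, n = 8) and 7.08 ± 0.17 in WT (SD, n = 7). Values of the other genes are given in the same way.

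Psmb9, which replaces Psmb6, was at 6.38, 6.74 and 7.06 in IhhKO_ApcKO, at 6.18, 6.51 and 6.73 in ApcKO, and at 6.40, 6.69 and 7.12 in WT. ApcKO arrays filled the lower part of the range, but only 5 of 9 IhhKO_ApcKO and 3 of 7 WT arrays lay above all of them. The means were 6.71 ± 0.20, 6.51 ± 0.18 and 6.74 ± 0.24 in that order of genotypes (SD, n = 9, 8 and 7). Psmb10, which replaces Psmb7, was at 8.41, 8.60 and 8.96 in IhhKO_ApcKO, at 8.31, 8.52 and 8.70 in ApcKO, and at 8.30, 8.56 and 8.78 in WT. Its groups overlapped, with 4 of 9 IhhKO_ApcKO arrays above every ApcKO array, and its means were 8.65 ± 0.20 in IhhKO_ApcKO, 8.52 ± 0.12 in ApcKO and 8.58 ± 0.17 in WT.

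The transporter subunits followed a similar order. Tap1 was at 8.01, 8.12 and 8.48 in IhhKO_ApcKO, at 7.82, 8.0001 and 8.20 in ApcKO, and at 7.84, 8.08 and 8.51 in WT. Of the 8 ApcKO arrays, 4 lay below every IhhKO_ApcKO array and all 9 IhhKO_ApcKO arrays lay above the ApcKO mean. Tap2 was at 7.08, 7.19 and 7.47 in IhhKO_ApcKO, at 7.05, 7.15 and 7.20 in ApcKO, and at 7.01, 7.27 and 7.42 in WT. ApcKO was the tightest group for Tap2, with a mean of 7.14 ± 0.052 (SD, n = 8), against 7.25 ± 0.13 in IhhKO_ApcKO (SD, n = 9) and 7.27 ± 0.13 in WT (SD, n = 7). For Tap2, 6 of 7 WT arrays lay above every ApcKO array, while WT array A6 was the lowest of all 24. For Tap1 the means were 8.19 ± 0.17 in IhhKO_ApcKO, 7.98 ± 0.13 in ApcKO and 8.14 ± 0.22 in WT.

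Tapbp and B2m completed the set. Tapbp was at 8.45, 8.59 and 8.95 in IhhKO_ApcKO, at 8.44, 8.70 and 8.85 in ApcKO, and at 8.56, 8.75 and 9.13 in WT. WT arrays A1, A2 and A3 lay above every array of both other genotypes, and the other 4 WT arrays lay among them. Tapbp was the only gene of the 7 with its lowest mean in IhhKO_ApcKO, 8.65 ± 0.17 (SD, n = 9), against 8.68 ± 0.14 in ApcKO (SD, n = 8) and 8.84 ± 0.25 in WT (SD, n = 7). B2m was at 11.81, 12.01 and 12.20 in IhhKO_ApcKO, at 11.73, 11.92 and 12.05 in ApcKO, and at 11.93, 11.99 and 12.19 in WT, with overlap of all groups. Its means were 12.00 ± 0.12, 11.91 ± 0.11 and 12.03 ± 0.089 in the same order of genotypes.

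ApcKO thus had the lowest mean for 6 of the 7 genes, an order that 40.3% of all 30838 genes shared. In those 6, the IhhKO_ApcKO and WT means differed by less than the SD of either group. ApcKO and the next genotype up differed by more than the SD of ApcKO for Psmb8, Psmb9, Tap1 and Tap2, and by less for Psmb10 and B2m. Without array B9 the IhhKO_ApcKO means were 7.14 for Psmb8, 6.74 for Psmb9, 8.68 for Psmb10, 8.20 for Tap1, 7.26 for Tap2, 8.65 for Tapbp and 11.99 for B2m, with SDs between 0.12 and 0.20 (n = 8).

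**Figure D1:**
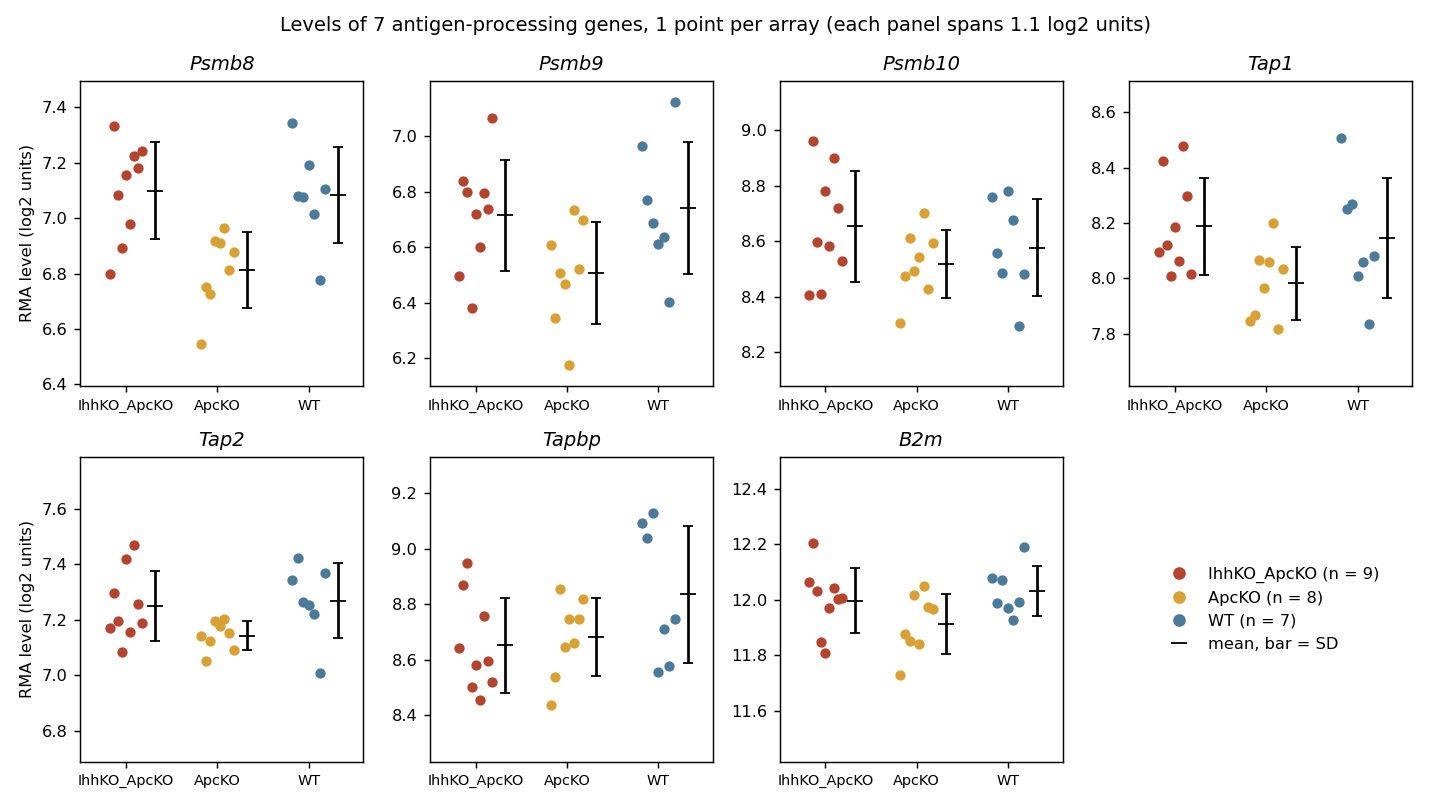
RMA log2 level (vertical axis, 1.1 log2 units in each panel) of the 7 measured genes on each array, for IhhKO_ApcKO (9 points), ApcKO (8) and WT (7); black bars give the mean and SD. For Psmb8, 7 of 9 IhhKO_ApcKO arrays and 6 of 7 WT arrays sit above all 8 ApcKO arrays, and every gene has groups that overlap.

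ApcKO minus WT compares fibroblasts beside Apc-deleted epithelium with fibroblasts beside epithelium in which neither gene was deleted. Apart from arrays A9 and B9, each genotype has a code letter of its own. Genotype and letter therefore cannot be told apart by the group means, in this comparison or in those of IhhKO_ApcKO below. All 7 differences were below 0, the largest in size being Psmb8, and no gene passed the test. By limma with Benjamini-Hochberg adjustment over all 30838 genes, 0 of the 7 genes had an adjusted p under 0.05, against 0% of all genes, and 0 of 7 had groups without overlap, against 0.00649%. Below 0 were 7 of 7 differences, against 60.6% of all genes. At an unadjusted p under 0.05, 3 of the 7 (Psmb8, Psmb9 and Tap2) had the lower level in ApcKO, against 3.12% of all genes. The median difference was -0.15 over the 7 genes and -0.021 over all genes. Levels of the 7 genes vary together across arrays, as given below, so these counts do not rest on separate observations.

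Psmb8 differed by -0.27 log2 units (SE 0.082, 1.21-fold lower, limma adjusted p = 0.97), with 8 of 8 ApcKO arrays below the WT mean. Psmb9 differed by -0.24 (SE 0.10) and Tap2 by -0.13 (SE 0.060), each with 8 of 8 ApcKO arrays below the WT mean. The other 4 genes were Tap1 at -0.16, Tapbp at -0.15, B2m at -0.12 and Psmb10 at -0.057, with limma adjusted p between 0.97 and 0.98 for all 7. Within the letter A, the single ApcKO array A9 lay below the mean of the 7 WT arrays for 7 of 7 genes, by a median of -0.30, and below every WT array for Psmb8, Tapbp and B2m.

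IhhKO_ApcKO minus ApcKO compares deletion of Ihh in addition to Apc with deletion of Apc alone. It uses the same 8 ApcKO arrays as the comparison with WT, so that the ApcKO level enters both with opposite sign. Above 0 were 6 of the 7 differences, against 56.6% of all genes, and Tapbp was at -0.029. By limma, 0 of the 7 genes had an adjusted p under 0.05, against 0.0454% of all genes. Groups without overlap occurred for 0 of 7, against 0.0227%. An unadjusted p under 0.05 with a higher level in IhhKO_ApcKO was found for 3 of the 7 genes (Psmb8, Psmb9 and Tap1), against 2.6% of all genes. The median difference was 0.13 over the 7 genes, against 0.011 over all genes.

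Psmb8 differed by 0.29 (SE 0.077, 1.22-fold higher, limma adjusted p = 0.28), with 8 of 9 IhhKO_ApcKO arrays above the ApcKO mean. Psmb9 differed by 0.21 (SE 0.096, limma adjusted p = 0.97) and Tap1 by 0.21 (SE 0.083, limma adjusted p = 0.84). Psmb10 at 0.13, Tap2 at 0.11 and B2m at 0.084 had 95% intervals that included 0. Without array B9, Psmb8 was at 0.32 (SE 0.075, limma adjusted p = 0.087), Psmb9 at 0.24, Psmb10 at 0.17 and Tap1 at 0.22, and the median over the 7 genes was 0.17. Within the letter B, the single IhhKO_ApcKO array B9 lay among the 7 ApcKO arrays for 5 of 7 genes, with a median difference from their mean of 0.0048. B9 is also the array with Gli1 near the level of the Ihh-intact groups, so the letter and that property cannot be told apart.

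**Figure D2:**
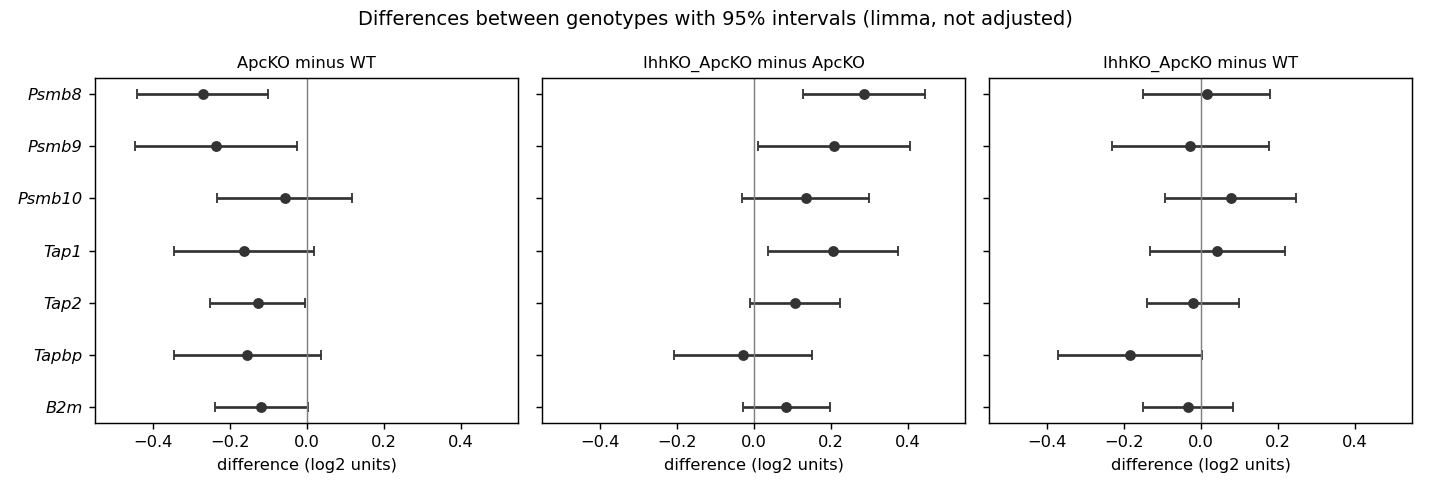
Differences between genotype means in log2 units (horizontal axis) with 95% intervals of the limma model, not adjusted for the number of genes, for the 7 genes (rows) and the 3 comparisons (panels). Psmb8 lies at -0.27 in ApcKO minus WT and at 0.29 in IhhKO_ApcKO minus ApcKO, and all 7 intervals include 0 in IhhKO_ApcKO minus WT.

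IhhKO_ApcKO minus WT, both deletions together against neither, gave small differences. Above 0 were 3 of the 7 (Psmb8 at 0.015, Psmb10 at 0.077 and Tap1 at 0.043) and 4 below (Psmb9 at -0.027, Tap2 at -0.020, B2m at -0.034 and Tapbp at -0.18), against 44.9% and 55.1% of all genes. Tapbp had the smallest p of the 7 (SE 0.091, limma adjusted p = 0.67), with 7 of 9 IhhKO_ApcKO arrays below the WT mean. Without array B9, Psmb8 was at 0.053, Psmb10 at 0.11 and Tapbp at -0.18, and the median over the 7 genes was -0.00019, beside -0.020 with it. By limma 0 of the 7 genes passed and 0 had an unadjusted p under 0.05, against 0.0811% and 7.62% of all genes, and 0 of 7 had groups without overlap, against 0.0713%. Intervals of 95% ran from -0.15 to 0.18 for Psmb8 and from -0.15 to 0.083 for B2m. The moderated F test for any difference between the 3 genotypes called 0 of 7, against 0.0876% of all genes, with the smallest p for Psmb8 (limma adjusted p = 0.32).

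Spread within a genotype differed between the genes. Psmb9 had the largest pooled within-group SD, 0.21 log2 units, and B2m and Tap2 the smallest, 0.11 each, beside a median of 0.15 over all genes. Arrays also had a profile of their own over the 7 genes. All 7 genes lay above their own 24-array mean on IhhKO_ApcKO arrays C1 and C6 and on WT array A1, while 0 of 7 did on IhhKO_ApcKO arrays C3 and C5 and on ApcKO arrays A9 and B1. WT array A6 was the lowest WT array for 5 of the 7 genes, and ApcKO array B5 the highest ApcKO array for 6. Averaged over the 7 centred genes, arrays ran from -0.16 to 0.24 in IhhKO_ApcKO, from -0.24 to 0.037 in ApcKO and from -0.20 to 0.26 in WT.

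The 7 genes varied together across arrays. All 21 pairs had a positive Pearson r over the 24 arrays, between 0.27 and 0.767 with a median of 0.582. Among the 21, 14 passed on Pearson's r and 18 on Spearman's rho (two-sided permutation test, adjusted p under 0.05 over the 21 pairs). Pairs share genes and arrays, so the 21 values of r are not separate observations. Whether overall array quality enters them was not tested. Without array B9 all 21 remained positive, between 0.26 and 0.782 with a median of 0.583. Within single genotypes r was positive for 21 pairs in IhhKO_ApcKO, 20 in ApcKO and 20 in WT. The median r there was 0.487, 0.393 and 0.477 in that order, and the lowest 0.0634, -0.0364 and -0.231. Differences between genotype means that the genes share also enter the r over 24 arrays. The share of all gene pairs on the array that would pass was not computed.

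Psmb8 and Tap1 had the highest r, 0.767 (permutation p = 2e-05, adjusted p = 0.00021), with a rho of 0.658 (permutation p = 0.00067, adjusted p = 0.00234). Without arrays A9 and A1, the farthest from the Psmb8 median, r was 0.696, and within genotypes it was 0.639 in IhhKO_ApcKO, 0.622 in ApcKO and 0.791 in WT. Psmb9 and Tap1, which share the printed stretch between their starts, had an r of 0.525 (permutation p = 0.00797, adjusted p = 0.0139) and a rho of 0.643 (permutation p = 0.00099, adjusted p = 0.0026). Their r without arrays B4 and A8 was 0.657, and it was 0.298 in IhhKO_ApcKO, 0.214 in ApcKO and 0.593 in WT. Psmb10 and Tapbp had the lowest r, 0.27 (permutation p = 0.202, adjusted p = 0.202), with a rho of 0.356 (permutation p = 0.0892, adjusted p = 0.0986). Without arrays C1 and C6 it was 0.219, and within genotypes 0.487 in IhhKO_ApcKO, 0.644 in ApcKO and 0.105 in WT.

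The genes most like the mean of the 7 centred genes were named by the highest Pearson r over the 24 arrays. They were Gm12250 (0.894), Gbp7 (0.877), F830016B08Rik (0.875), Gbp4 (0.875), Iigp1 (0.874), Gbp11 (0.850), Igtp (0.842) and Gbp3 (0.832). Gbp3, Gbp4 and Gbp7 encode guanylate-binding proteins and Iigp1 and Igtp immunity-related GTPases, families that interferon-gamma induces, and RefSeq lists Gbp11 as a transcribed pseudogene. Taken as deviations from each genotype's mean, the same 8 genes had r between 0.757 and 0.891, so the likeness is not only in the genotype means. The 8 were picked by their r on these same arrays, so these values are descriptions and not tests. Without array B9 the r of these 8 genes to the mean of the 7 lay between 0.829 and 0.895. These close relatives within families can share probe signal, and none of the 8 passed in a comparison of genotypes. Igtp differed by 0.70 in IhhKO_ApcKO minus ApcKO (SE 0.16, limma adjusted p = 0.14) and by -0.41 in ApcKO minus WT (SE 0.17, limma adjusted p = 0.97). Gbp7 differed by 0.59 (SE 0.13, limma adjusted p = 0.15) and by -0.50 (SE 0.14, limma adjusted p = 0.97) in those comparisons. Without B9, IhhKO_ApcKO minus ApcKO was 0.73 for Igtp (limma adjusted p = 0.063) and 0.63 for Gbp7 (limma adjusted p = 0.063).

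**Figure D3:**
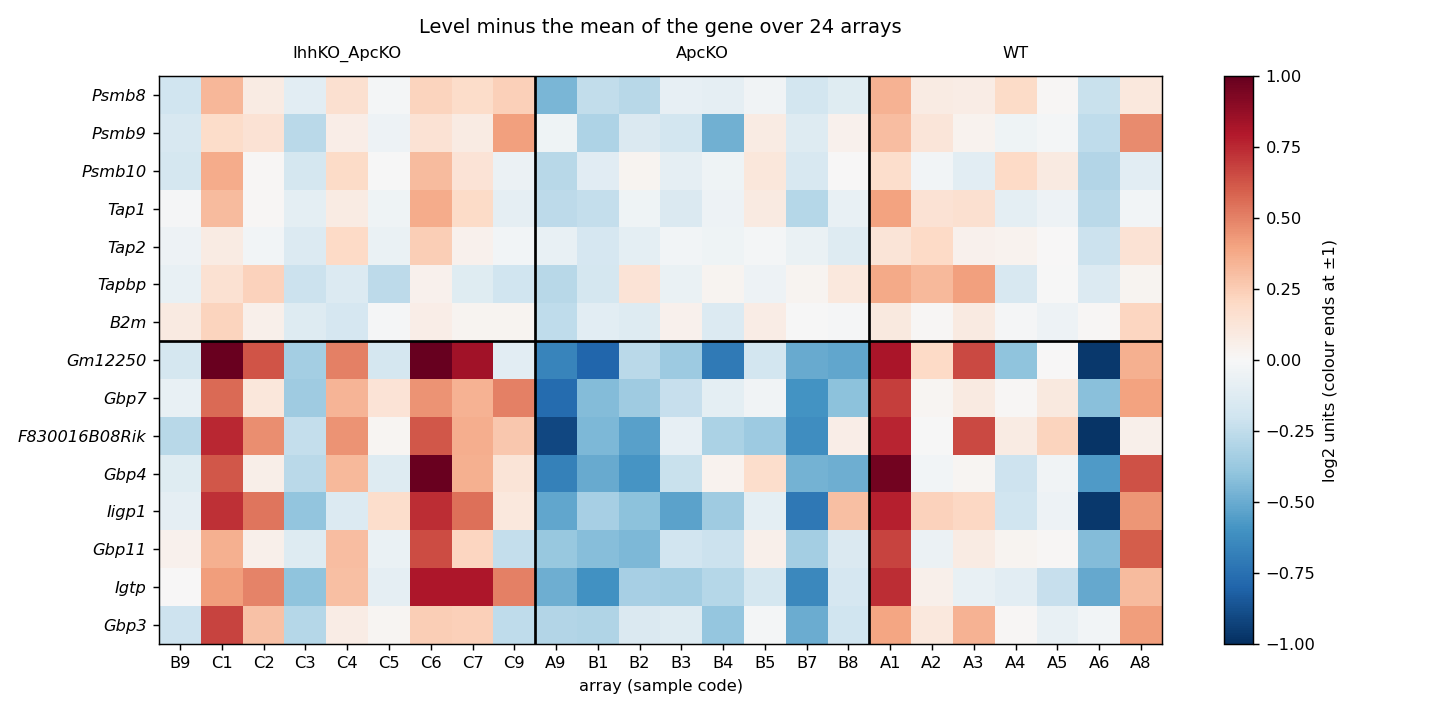
Level minus each gene's mean over the 24 arrays, in log2 units by colour, for the 7 measured genes (upper rows) and the 8 genes most like their mean (lower rows); columns are arrays, grouped as IhhKO_ApcKO, ApcKO and WT. Arrays C1, C6 and A1 are high in the upper rows and arrays A9, B1 and A6 low, and most lower rows show the same for these arrays, with a wider range.

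Other genes of the pathway were set beside the 7. Of 23 genes named by rule, 18 were measured, and Psmb5, Psme2, H2-T23 and Cd74 were among those with no probe set of their own here. Psmb6 and Psmb7, the constitutive counterparts of Psmb9 and Psmb10, differed by 0.00078 and 0.0087 in ApcKO minus WT and by 0.065 and 0.053 in IhhKO_ApcKO minus ApcKO, none of them called. Psme1, a subunit of the interferon-inducible 11S activator, averaged 7.28 ± 0.084 in IhhKO_ApcKO (SD, n = 9), against 7.14 ± 0.087 in ApcKO (SD, n = 8) and 7.29 ± 0.12 in WT (SD, n = 7). It differed by 0.14 in IhhKO_ApcKO minus ApcKO (SE 0.051, limma adjusted p = 0.69) and by -0.15 in ApcKO minus WT (SE 0.054, limma adjusted p = 0.97). Without B9 the difference between IhhKO_ApcKO and ApcKO was 0.15 (SE 0.053, limma adjusted p = 0.61). The r of Psme1 to the mean of the 7 genes was 0.830, rank 10 of 30831 other genes, and the 11 other subunits of the 20S core had a median r of 0.22. Pomp, the assembly chaperone, differed by 0.062 and -0.11 in those comparisons, and Psmb11, the thymic subunit, lay near the control median, between 4.41 and 5.06.

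Of the loading factors, Tapbpl, which edits peptides on class I molecules, differed most between IhhKO_ApcKO and ApcKO. It was at 7.69, 7.79 and 8.03 (lowest, median and highest) in IhhKO_ApcKO, at 7.32, 7.56 and 7.79 in ApcKO, and at 7.38, 7.62 and 7.84 in WT. Of the 8 ApcKO arrays, 6 lay below every IhhKO_ApcKO array, and the difference was 0.23 (SE 0.066, limma adjusted p = 0.33), or 0.24 without B9 (SE 0.068, limma adjusted p = 0.25). Unlike Psmb8, its ApcKO minus WT difference was near 0, at -0.046 (SE 0.070), though the contrast between the genes was not tested. Pdia3, the disulfide isomerase of the loading complex, was at -0.13 in ApcKO minus WT (SE 0.050, limma adjusted p = 0.97) and at 0.055 in IhhKO_ApcKO minus ApcKO. Calr, the chaperone calreticulin, was at -0.14 and 0.061 and Erap1, the peptide-trimming aminopeptidase, at 0.017 and 0.12 in the same pair of comparisons.

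Class I heavy chains, a list that includes the class I-like molecules Mr1 and Cd1d1, were below 0 for 11 of 11 measured genes in ApcKO minus WT, with a median of -0.074, and above 0 for 9 of 11 in IhhKO_ApcKO minus ApcKO, with a median of 0.041. None passed the test. H2-K1, a classical heavy chain, differed by -0.061 and 0.056, H2-D1 by -0.074 and 0.054, and H2-M3, which presents formylated peptides, by -0.15 and 0.14. Mr1, which presents vitamin B metabolites and was singled out after its values were seen, had the largest difference in size, at -0.26 in IhhKO_ApcKO minus ApcKO (SE 0.11, limma adjusted p = 0.87) and -0.44 in IhhKO_ApcKO minus WT (SE 0.11, limma adjusted p = 0.18). Without B9 these were -0.24 (limma adjusted p = 0.92) and -0.41 (limma adjusted p = 0.19). The H2 heavy chain genes are near copies of one another, so their probe sets may share signal. The 32 other interferon response genes measured were below 0 for 32 of 32 in ApcKO minus WT (median -0.27), above 0 for 31 of 32 in IhhKO_ApcKO minus ApcKO (median 0.32) and above 0 for 18 of 32 in IhhKO_ApcKO minus WT (median 0.015), with 0 of 32 called in each. Of all genes, 60.6% were below 0 in ApcKO minus WT, 56.6% above 0 in IhhKO_ApcKO minus ApcKO and 44.9% above 0 in IhhKO_ApcKO minus WT. Genes of a list can vary together across arrays, so these counts do not rest on separate observations. Without B9, 31 of 32 interferon response genes were above 0 in IhhKO_ApcKO minus ApcKO (median 0.34) and 20 of 32 in IhhKO_ApcKO minus WT (median 0.060). Of the class I heavy chains, 9 of 11 were then above 0 in IhhKO_ApcKO minus ApcKO (median 0.049). The median r of the 32 interferon response genes to the mean of the 7 genes was 0.65, against 0.36 for class I heavy chains, 0.088 for class II genes and 0.027 for all other genes.

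**Figure D4:**
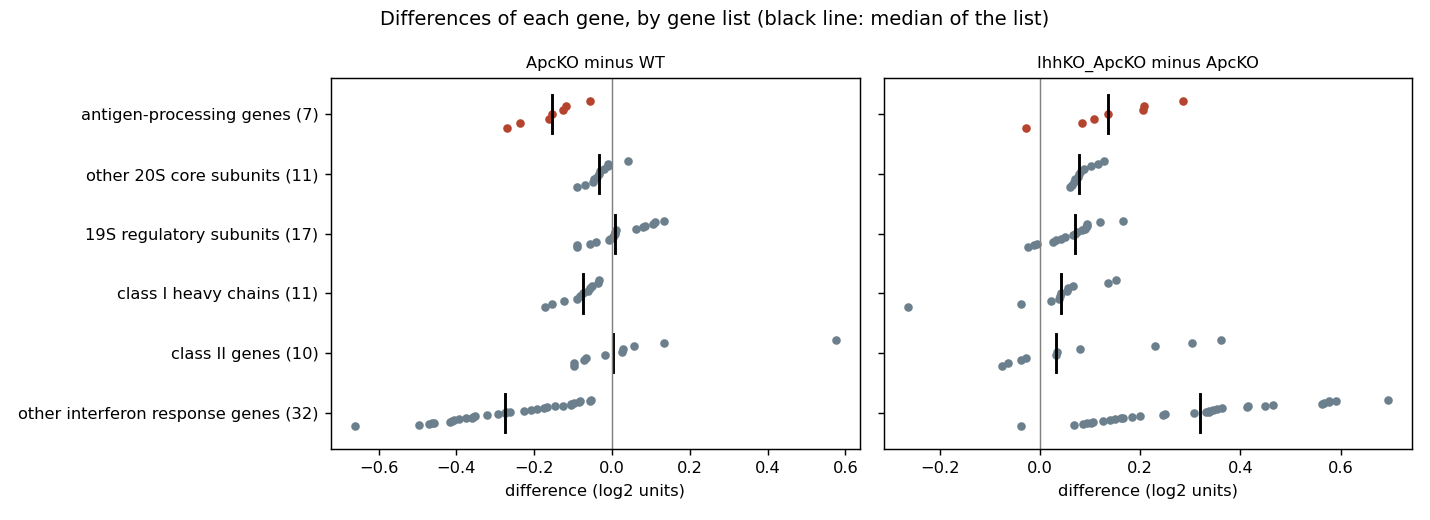
Difference of each gene in log2 units (horizontal axis), by gene list (rows, number of measured genes in brackets), for ApcKO minus WT and IhhKO_ApcKO minus ApcKO; the black line is the median of the list. The 7 antigen-processing genes have medians of -0.15 and 0.13, the 32 other interferon response genes -0.27 and 0.32, and the 11 other 20S core subunits -0.035 and 0.078.

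Signalling genes and regulators of the pathway had small differences of either sign. Irf1, a transcription factor that interferon-gamma induces, was at -0.047 in ApcKO minus WT (SE 0.11) and at -0.046 in IhhKO_ApcKO minus ApcKO (SE 0.10). Irf9, which takes part in binding interferon-stimulated response elements, was at -0.16 (SE 0.11) and 0.11 (SE 0.10), and Ifngr1, a chain of the interferon-gamma receptor, at -0.059 and 0.071. Rfx5, a factor of the class I and class II promoters, was at 0.052 and -0.15, and Ciita, the class II transactivator, at -0.067 and 0.033. Ifng, encoding the ligand interferon-gamma, lay between 3.29 and 3.97 on all 24 arrays, under the negative control median. None of these 6 genes passed in any comparison.

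Markers of other cells were read beside these results, since bulk levels cannot tell fewer cells of a type from less RNA per cell. The mean of 19 leukocyte markers was 5.20 ± 0.11 in IhhKO_ApcKO, between 5.07 and 5.39, against 5.15 ± 0.076 in ApcKO, between 5.04 and 5.25, and 5.15 ± 0.083 in WT, between 5.02 and 5.29 (SD, n = 9, 8 and 7). Its r with the 7 genes lay between -0.241 and 0.221, rho between -0.264 and 0.128. This leukocyte mean lay close to the array medians of 4.96 to 5.14, so its correlations can show little about leukocytes. Cd68 was the brightest of these markers, with means of 9.07 in IhhKO_ApcKO, 9.15 in ApcKO and 9.08 in WT. The mean of 16 epithelial markers was 6.86 ± 0.81 in IhhKO_ApcKO, between 5.42 and 8.01, against 7.16 ± 0.70 in ApcKO, between 6.10 and 7.93, and 6.66 ± 0.67 in WT, between 5.81 and 7.68. Of the 16, 14 lay above 0 in ApcKO minus WT and 15 of 16 below 0 in IhhKO_ApcKO minus ApcKO, with 0 called. Of all genes, 60.6% lay below 0 in the former comparison and 56.6% above 0 in the latter. The epithelial mean had an r with the 7 genes between -0.28 and 0.109 and a rho between -0.361 and 0.0287. Of all 14 relations, 0 passed (two-sided permutation test, adjusted p between 0.869 and 0.887 for r and between 0.787 and 0.896 for rho). Within genotypes the leukocyte r lay between -0.57 and 0.163 in IhhKO_ApcKO, -0.0168 and 0.356 in ApcKO, and -0.345 and 0.419 in WT. The epithelial r lay between -0.0758 and 0.603 in IhhKO_ApcKO, -0.649 and 0.375 in ApcKO, and -0.611 and -0.182 in WT. Without arrays C9 and A3 the leukocyte r lay between -0.104 and 0.0654, and without C3 and C9 the epithelial r lay between -0.426 and -0.156. With the leukocyte mean as a covariate Psmb8 was at -0.27 in ApcKO minus WT and 0.29 in IhhKO_ApcKO minus ApcKO, and with the epithelial mean at -0.26 and 0.28. Fibroblast markers (9 genes) averaged 10.63 ± 0.14, 10.70 ± 0.098 and 10.74 ± 0.083 (SD) in IhhKO_ApcKO, ApcKO and WT. Their lowest arrays were C3, A9 and A6, also the lowest for the average of the 7 centred genes in each genotype. Single fibroblast markers had an r to that average between -0.39 and 0.35 (median 0.13). The mean of 7 blood endothelial markers was 5.66, 5.68 and 5.70 in that order. Neither mean was tested against the 7 genes.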

How the data were processed

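The deposited values are log2 levels from the authors' RMA, per the submitters' processing notes; RMA usually corrects background, normalises by quantiles and summarises probes. The RMA software and the build behind the array annotation: not given in the sources used here. Per the labels, RNA was amplified with a 3' IVT pico kit. Of 72688 probe sets, 6732 controls were left out. Of 65956 clusters, 31402 had 1 gene, 1348 several and 33206 no name in the platform annotation, and the brightest cluster stood for each of 30838 genes. Arrays give no depth, and their number limits the precision.

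Genotypes were compared with limma 3.58.1 in R 4.3.3 (all 24 arrays in 1 model, two-sided, Benjamini-Hochberg over all genes, threshold 0.05), after tests on simulated data. Correlations used 100000 permutations in scipy 1.17.1. Genes named were the 8 members, 23 pathway genes listed by name, and the 8 most and 5 least alike genes. Planned correlations with Nlrc5 could not be run. Members and lists were chosen with earlier results of these data known. Alternatives changed the filter, eBayes settings, array weights, centring, probe set rule, arrays fitted, code letter or number as a block, marker covariates and each array in turn.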

Additional observations from a re-analysis of the deposited data

How the results depend on the processing

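With 0 of the 7 genes called in every comparison and in the F test, the count stayed 0 under every alternative run. For Psmb8 in IhhKO_ApcKO minus ApcKO the adjusted p lay between 0.087 and 0.50 without the letter block, the lowest in the fit without array B9. The code letter as a block moved the median over the 7 genes to -0.30 in ApcKO minus WT, 0.0048 in IhhKO_ApcKO minus ApcKO and -0.21 in IhhKO_ApcKO minus WT. By construction this fit rests on A9 against the WT arrays and on B9 against the ApcKO arrays. Under it Psmb8 turned to -0.052 and Psmb10 to -0.14 in IhhKO_ApcKO minus ApcKO, and Psmb8 to -0.59, Psmb10 to -0.41 and Tap1 to -0.21 in IhhKO_ApcKO minus WT. Other reversals under the alternatives planned at the start were in IhhKO_ApcKO minus WT, where values lay near 0, and their cause was not tested. Centring each array on its median gave 0.00049 for Psmb9 and 0.0076 for Tap2, and array weights gave 0.0044 for Tap2. Leaving out each array in turn gave -0.036 to 0.059 for Psmb8, -0.084 to 0.036 for Psmb9, -0.0089 to 0.10 for Tap1 and -0.064 to 0.0051 for Tap2 there. The other 527 single-gene values kept direction and side of the threshold. The median over the 7 genes in IhhKO_ApcKO minus WT, -0.020, also turned above 0 in 6 of 26 alternatives: 0.0044 with array weights, 0.0076 with centring, and 0.0097, 0.0051, 0.019 and 0.014 without A1, A2, A8 and C3 in turn, while the medians of both other comparisons kept their sign. Psmb8, Psmb9, Tap1 and Tap2 had means under the negative controls' 95th percentile, which limits what small differences can show. In each of the 21 groups of arrays tested for a stray value, 0 were found. Sample codes are not shared between genotypes, but their numbers recur, and the labels do not say that a number pairs arrays. Over all genes, deviations from the genotype means had an r above 0.1 in 12 of 20 pairs with the same number, between -0.060 and 0.33 (median 0.13). Among pairs with different numbers, 43 of 171 had an r above 0.1, between -0.34 and 0.33 (median -0.023). Arrays with the same number were thus more alike by the median, while 5 of 24 arrays correlated best with their own number. The main fit did not treat arrays as paired, since no label states a pairing. With the number as a replicate block, chosen after seeing the data, 0 of the 7 genes were called, the medians were -0.14 in ApcKO minus WT, 0.16 in IhhKO_ApcKO minus ApcKO and -0.0053 in IhhKO_ApcKO minus WT, and Tapbp turned to 0.00056 in IhhKO_ApcKO minus ApcKO.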

Other observations

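The probe set shared by Nlrc5 and Mir7072 lay at 6.30 ± 0.19 in IhhKO_ApcKO (SD, n = 9), between 5.98 and 6.54, against 6.04 ± 0.13 in ApcKO (SD, n = 8), between 5.82 and 6.23, and 6.21 ± 0.19 in WT (SD, n = 7), between 5.97 and 6.53. These values belong to both genes and were not tested. ApcKO was the lowest group, as for 6 of the 7 measured genes.

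Proteasome genes outside the immunoproteasome had small differences whose signs depended on the comparison. In IhhKO_ApcKO minus WT, 17 of 17 measured subunits of the 19S regulatory particle, which unfolds proteins for the core, were above 0, with a median of 0.088. In IhhKO_ApcKO minus ApcKO 14 of 17 were above 0, with a median of 0.070, and in ApcKO minus WT 11 of 17, with a median of 0.0065. The 11 other 20S core subunits were above 0 for 11 of 11 in IhhKO_ApcKO minus WT, with a median of 0.039, and for 11 of 11 in IhhKO_ApcKO minus ApcKO, with a median of 0.078. In ApcKO minus WT 10 of these 11 were below 0, with a median of -0.035. None passed the test. Of all genes, 44.9% were above 0 in IhhKO_ApcKO minus WT and 56.6% in IhhKO_ApcKO minus ApcKO, and 60.6% were below 0 in ApcKO minus WT. Without array B9 the 19S medians were 0.090 in IhhKO_ApcKO minus WT and 0.069 in IhhKO_ApcKO minus ApcKO, and those of the 20S core were 0.041 and 0.072.

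Class II genes, which antigen-presenting cells use for peptides taken up from outside, had differences of either sign, with 5 of 10 above 0 in ApcKO minus WT, 6 of 10 in IhhKO_ApcKO minus ApcKO and 4 of 10 in IhhKO_ApcKO minus WT. The list also holds Ctss, encoding cathepsin S, which cuts the class II invariant chain. Ctss had the largest difference of the list, 0.65 in IhhKO_ApcKO minus WT (SE 0.27, limma adjusted p = 0.57), and was at 0.58 in ApcKO minus WT (SE 0.28, limma adjusted p = 0.97). Chosen, like Ctss, after their values were seen, H2-Aa differed by 0.44 in IhhKO_ApcKO minus WT (SE 0.16, limma adjusted p = 0.48) and H2-Ab1 by 0.39 (SE 0.23, limma adjusted p = 0.74). Without array B9 these IhhKO_ApcKO minus WT differences were 0.55 for Ctss, 0.35 for H2-Aa and 0.34 for H2-Ab1. Their r to the mean of the 7 genes was -0.22 for Ctss, -0.037 for H2-Aa and 0.097 for H2-Ab1. Stat2, a partner of Irf9 that was also singled out after its values were seen, had an r of 0.66.

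The genes least like the 7, by the lowest Pearson r over the 24 arrays, were Gm5839 (-0.717), Gm8349 (-0.713), Gm9027 (-0.652), Gm25626 (-0.651) and Gm13141 (-0.648). RefSeq lists 4 of them as pseudogenes and Gm25626 as a small nuclear RNA, and none of the 5 passed in a comparison of genotypes.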
